A study of Columba livia and Gallus gallus with 96 samples.

Results

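The Iroquois genes are the 6 genes named IRX1 to IRX6 in the domestic pigeon, *Columba livia*. They were found by their gene symbols, and each symbol belonged to 1 feature, so that 6 of the 21379 annotated features (6 of 14845 gene names) were followed. The 18 groups were the hindlimb and forelimb buds of muff, grouse and scale embryos at Hamburger-Hamilton stages HH21, HH25 and HH29, which are incubation days 3.5, 4.5 and 6. Muff and grouse are pigeons with feathered feet, more so in muffs, and scale pigeons have the scaled feet usual in birds. Each group held 4 RNA-seq libraries, 72 of the 96 libraries of the series, and each library was made from pairs of limb buds. The chicken libraries of the series were not analysed here. The study asked how limb identity differs between scaled and feathered feet.

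Iroquois proteins are transcription factors of the TALE homeodomain class. They pattern many organs of the vertebrate embryo, and in vertebrate genomes their genes lie in clusters. In the mouse, Irx3 and Irx5 together are needed in the early hindlimb field for the proximal and anterior skeleton, and Irx1 and Irx2 have been followed in the forming digits of the chick. Irx4 is best known from the heart ventricle, and Irx5 and Irx6 from bipolar cells of the mouse retina. In the bColLiv1.pat.W.v2 annotation, which served only for gene names and gene order, IRX4, IRX2 and IRX1 followed each other on chromosome 2. Next to them were NDUFS6, a subunit of mitochondrial complex I, on the IRX4 side and ANKS6 on the IRX1 side. IRX3, IRX5 and IRX6 followed each other on chromosome 13, between FTO, an RNA demethylase gene, and MMP2, a gelatinase gene.

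Library totals ranged from 10438537 to 16378164 read counts, with a median of 12915094.5. Levels are given as CPM, the read counts scaled to a common library size by TMM, and log2 fold changes with standard errors (SE) and adjusted p-values come from edgeR's quasi-likelihood test over all genes, with a call at an adjusted p below 0.05. The labelled limbs carried their defining genes. TBX5, the forelimb selector, was at 0.08 to 66.3 CPM in hindlimbs and 142 to 375 CPM in forelimbs, and PITX1, the hindlimb selector, was at 102 to 324 CPM in hindlimbs and 0.59 to 17.1 CPM in forelimbs. TBX5 averaged 49.1 CPM in muff hindlimbs at HH29, against 3.94 CPM in scale hindlimbs. Libraries numbered 3 and 4 stood apart from those numbered 1 and 2. With that split as a term in the fits, 37.3% of genes at HH21, 54.1% at HH25 and 1.73% at HH29 differed between the number pairs, and the labels do not say what the numbers stand for. The labels also do not say whether libraries of a group came from separate embryos, so the p-values measure the spread between these libraries. In whole limb buds, fewer cells of a type and less RNA per cell cannot be told apart. Where the libraries of groups are said not to overlap, the share of all genes that separate this way was not counted.

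All 6 genes were detected in all 72 libraries, from 1 to 529 counts a library, and all 6 passed the filter on low counts at each stage. At HH21 IRX1 passed it mainly through forelimb libraries. Over the 72 libraries the counts came to 6264 for IRX1, 7582 for IRX2, 8645 for IRX3, 8642 for IRX4, 4142 for IRX5 and 13659 for IRX6. The transcripts' lengths were not used here, so levels are compared only within a gene. Ordered by group mean, IRX1 ran down from 17.4 CPM in grouse hindlimb at HH29 to 0.404 CPM in muff hindlimb at HH21. IRX3 ran the other way with age, from 15.2 CPM in muff forelimb at HH21 to 4.03 CPM in grouse hindlimb at HH29. The other 4 genes had narrower ranges as a ratio of highest to lowest group mean. IRX2 lay between 13.3 CPM in scale forelimb at HH29 and 5.07 CPM in muff hindlimb at HH21, and IRX4 between 15.5 CPM in muff forelimb at HH29 and 6.12 CPM in grouse hindlimb at HH21. IRX5 lay between 6.26 CPM in muff forelimb at HH29 and 3.28 CPM in muff hindlimb at HH21, and IRX6 between 24.2 CPM in muff forelimb at HH29 and 10.9 CPM in grouse hindlimb at HH29. Most neighbours in these orders differed by no more than their spread. For IRX2, IRX4, IRX5 and IRX6 all 17 gaps between neighbouring groups were no wider than the larger SD of the neighbours, for IRX1 16 of 17 and for IRX3 15 of 17. The exceptions were the gap below scale forelimb at HH29 for IRX1 and the gaps on both sides of scale hindlimb at HH29 for IRX3.

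IRX1 rose steeply with stage in both limbs, and IRX3 fell. In hindlimbs IRX1 had 0.0870, 0.578 and 1.25 CPM at HH21 as the lowest, median and highest of 12 libraries, against 0.578, 4.06 and 10.5 CPM at HH25 and 10.1, 15.99 and 19.7 CPM at HH29. In forelimbs the lowest, median and highest of 12 libraries were 0.645, 1.10 and 2.11 CPM at HH21, 2.06, 2.83 and 7.07 CPM at HH25, and 9.78, 14.03 and 21.2 CPM at HH29. At HH29 every library of either limb was above every forelimb library of HH25, and the hindlimb libraries of HH25 and HH29 met at the edge, with a lowest value of 10.1 CPM at HH29, against a highest of 10.5 CPM at HH25. At HH21 the hindlimb values rest on 1 to 15 counts a library, so single values there are imprecise.

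The mean of IRX1 at HH29 was 25.8-fold that at HH21 in hindlimbs and 11.9-fold in forelimbs. In the fit over all 72 libraries, averaged over the phenotypes, IRX1 rose in hindlimbs at HH25 over HH21 by 2.79 on the log2 scale (SE 0.28, adjusted p = 3.8e-13), and at HH29 over HH25 by 1.92 (SE 0.21, adjusted p = 7.9e-12). In forelimbs it rose by 1.41 (SE 0.25, adjusted p = 3.4e-06) and by 2.17 (SE 0.21, adjusted p = 5.6e-13). The hindlimb step at HH25 differed in size between the number pairs, with a log2 fold change of 1.45 within libraries 1 and 2 and 3.85 within libraries 3 and 4. The step at HH29 over HH25 was 2.92 within libraries 1 and 2 and 1.37 within libraries 3 and 4.

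IRX3 went down with stage. In hindlimbs the lowest, median and highest of 12 libraries were 8.03, 10.3 and 15.5 CPM at HH21, 4.44, 7.11 and 11.9 CPM at HH25, and 3.72, 5.15 and 7.23 CPM at HH29. In forelimbs they were 9.76, 12.97 and 20.1 CPM at HH21, 4.42, 10.6 and 14.6 CPM at HH25, and 6.11, 7.98 and 11.3 CPM at HH29. No hindlimb library of HH29 reached the lowest hindlimb library of HH21, while HH25 overlapped both. IRX3 fell in hindlimbs at HH25 over HH21 (log2 fold change -0.60, SE 0.15, adjusted p = 0.00036) and again at HH29 over HH25 (-0.53, SE 0.15, adjusted p = 0.0027). It fell in forelimbs at HH25 over HH21 (-0.48, SE 0.14, adjusted p = 0.0036), whereas HH29 over HH25 did not pass the test there (-0.28, adjusted p = 0.11). The second hindlimb step was not called without the libraries numbered 2 (adjusted p = 0.060), nor within libraries 3 and 4 alone (-0.28, adjusted p = 0.31).

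**Figure D1:**
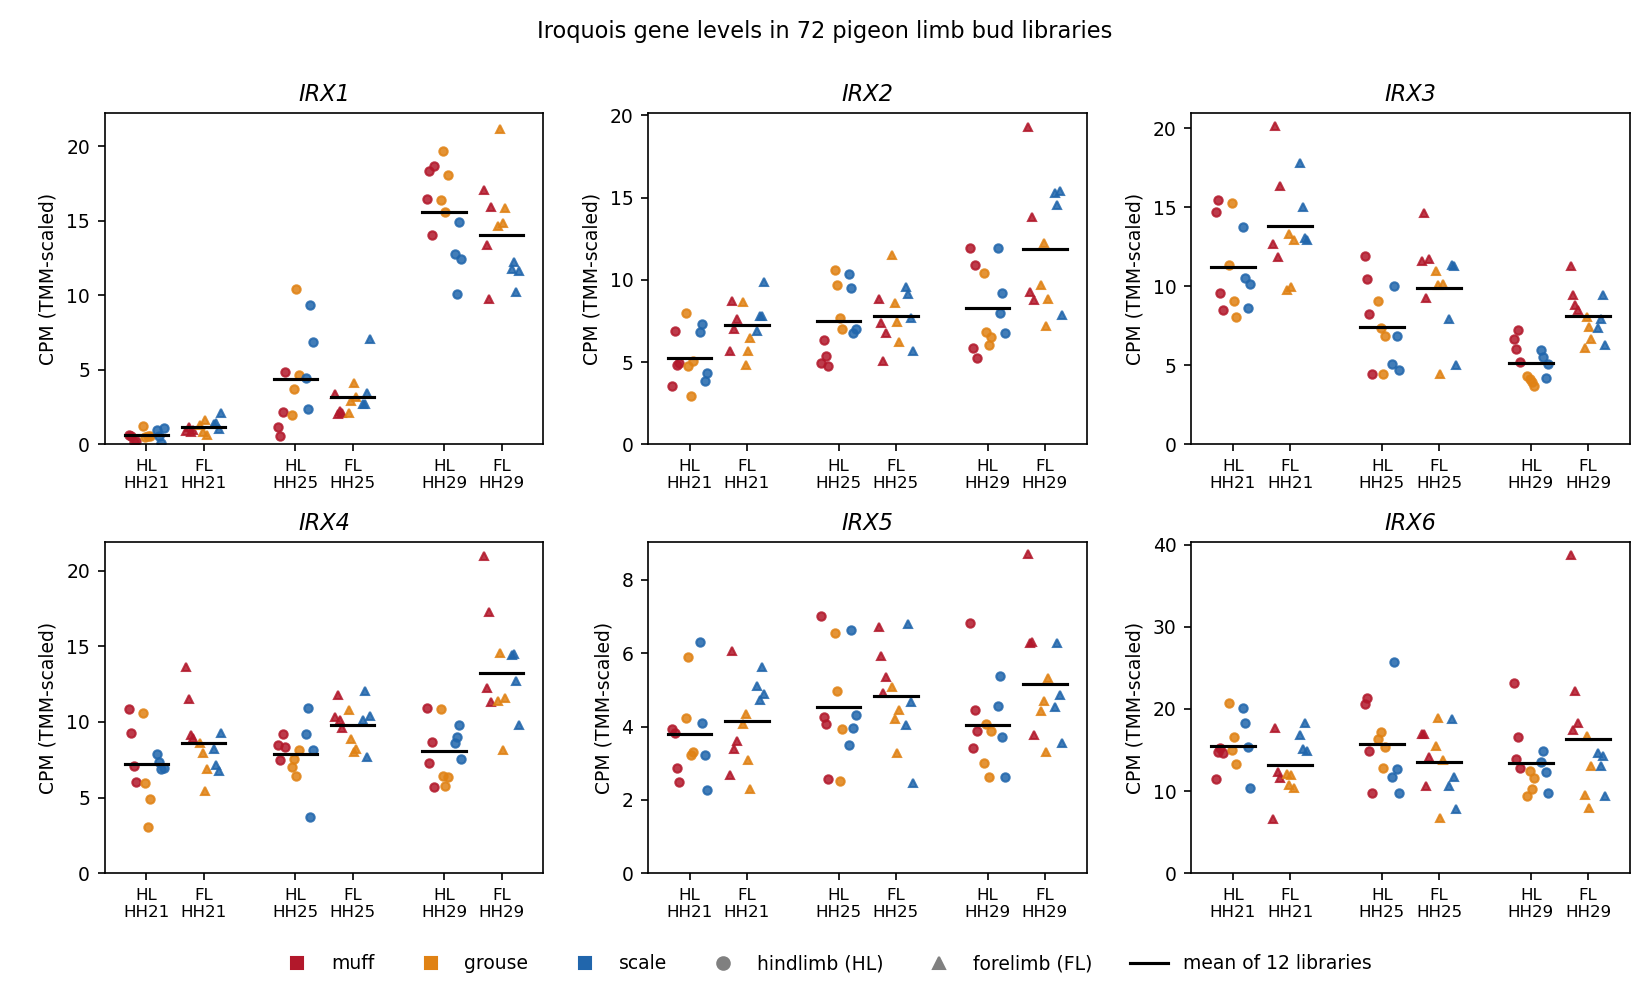
Level of each Iroquois gene (CPM, y axis) in all 72 libraries by stage and limb (x axis), with hindlimb left of forelimb; points are libraries coloured by foot phenotype and bars are means of 12 libraries. IRX1 climbs from means of 0.606 and 1.19 CPM at HH21 to 15.6 and 14.1 CPM at HH29 in hindlimbs and forelimbs, and IRX3 goes down over the same stages.

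IRX2 rose at 1 step in each limb, and IRX4 at 1 step in the forelimb. IRX2 rose in hindlimbs at HH25, with a mean of 7.51 ± 2.08 CPM at HH25, against 5.28 ± 1.61 CPM at HH21 (SD, n = 12 each; log2 fold change 0.48, SE 0.16, edgeR adjusted p = 0.0093). That call was lost without the libraries numbered 3 (adjusted p = 0.081). In forelimbs IRX2 rose at HH29, with 11.9 ± 3.80 CPM, against 7.82 ± 1.80 CPM at HH25 (SD, n = 12 each; 0.60, SE 0.15, edgeR adjusted p = 0.0010). IRX4 rose in the forelimb at HH29, with 13.2 ± 3.44 CPM, against 9.82 ± 1.42 CPM (SD, n = 12 each; 0.43, SE 0.14, edgeR adjusted p = 0.0081). In hindlimbs the HH29 over HH25 values were 0.18 for IRX2 and 0.04 for IRX4, and neither passed. IRX5 and IRX6 passed in none of the 4 stage tests, with log2 fold changes between -0.24 and 0.25.

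In all, 10 of 24 stage tests of the 6 genes were called. By comparison, 3 of 6 genes were called at HH25 over HH21 in hindlimbs and 2 of 6 at HH29 over HH25, where 54.8% and 49.8% of all genes tested were called. In forelimbs 2 of 6 were called at HH25 over HH21 and 3 of 6 at HH29 over HH25, beside 53.7% and 47.1% of all genes. The share of Iroquois genes called therefore lay near the background of genes that change with limb bud age. Genes of cartilage and joint moved over the same steps. All 12 of the listed genes found in the table, among them SOX9 and COL2A1, rose at HH25 in both limbs, with median log2 fold changes of 2.08 in hindlimbs and 1.63 in forelimbs. Their summed level spanned 187 to 473 CPM at HH21, 837 to 1870 CPM at HH25 and 1287 to 3221 CPM at HH29 in hindlimbs. In forelimbs it spanned 212 to 449 CPM, 748 to 2118 CPM and 1242 to 3394 CPM at the same stages, with MATN1 near 0 at HH21. Their part in the IRX1 and IRX3 changes was not tested.

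Among the other TALE homeobox genes, 10 of 11 were in the table. In hindlimbs 2 rose and 2 fell at HH25, and 1 rose and 6 fell at HH29 over HH25, with medians of -0.05 and -0.29 beside 0.01 for all genes at both steps. MKX, a tendon factor, rose by 4.47 and 1.16 on the log2 scale in hindlimbs (adjusted p = 2.5e-24 and 1.6e-08). MEIS2, a marker of the proximal limb, fell at both hindlimb steps (-0.92 and -1.56, adjusted p = 3.0e-06 and 1.3e-11). In forelimbs 2 rose and 3 fell at the first step, and 1 rose and 6 fell at the second. Of 9 genes listed beforehand as flanking the clusters in birds and mammals, 5 were in the table. ANKS6 was not on that list. MMP2, beside IRX6, rose at both steps in hindlimbs (0.48 and 0.86) and in forelimbs (0.33 and 0.60). LPCAT2, listed though not among the nearest neighbours in the pigeon annotation, rose at both steps in hindlimbs (0.77 and 0.75). In forelimbs it rose at the second step (0.73). FTO, beside IRX3, NDUFS6, beside IRX4, and RPGRIP1L passed at no step.

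Hindlimb and forelimb were compared within each phenotype and stage. IRX3 was lower in hindlimbs at HH29, and the levels of IRX3 and IRX4 were lower in the hindlimb in 9 of 9 comparisons. Some of these differences were small, with log2 fold changes from -0.81 to -0.06 for IRX3 and from -0.92 to -0.11 for IRX4. Of the 9 tests of each gene, 2 were called for IRX3 and 0 for IRX4. The share of all genes with the same sign in 9 of 9 comparisons was not counted. At HH29 IRX3 had 4.33, 4.16, 3.92 and 3.72 CPM in grouse hindlimbs, against 6.11, 8.06, 7.44 and 6.66 CPM in grouse forelimbs. In scale embryos it had 5.97, 5.53, 4.23 and 5.07 CPM in hindlimbs, against 7.38, 7.90, 9.44 and 6.31 CPM in forelimbs. In muff embryos it had 6.68, 6.04, 7.23 and 5.23 CPM in hindlimbs, against 11.3, 9.47, 8.79 and 8.48 CPM in forelimbs. In each phenotype every hindlimb library was below every forelimb library, and how many of all genes separate this way was not counted. The log2 fold change was -0.81 in grouse (SE 0.16, edgeR adjusted p = 0.0043), -0.57 in scale (SE 0.15, edgeR adjusted p = 0.045) and -0.59 in muff (edgeR adjusted p = 0.063). The grouse call held without any 1 of its 8 libraries (adjusted p 0.0046 to 0.022). The scale call was lost without any 1 of its 8 libraries other than scale forelimb library 4 (adjusted p 0.031 to 0.24).

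IRX4 showed the same order of the limbs at HH29. It had 10.9, 7.26, 8.69 and 5.68 CPM in muff hindlimbs, against 20.99, 12.3, 17.3 and 11.3 CPM in muff forelimbs. In grouse it had 10.8, 6.44, 5.76 and 6.35 CPM in hindlimbs, against 11.4, 14.6, 8.14 and 11.6 CPM in forelimbs, and in scale 8.59, 9.02, 9.79 and 7.53 CPM in hindlimbs, against 14.4, 14.5, 12.7 and 9.78 CPM in forelimbs. The limbs did not overlap in muff embryos, whereas 1 grouse hindlimb library lay above the lowest grouse forelimb library and 1 scale hindlimb library just above the lowest scale forelimb library. The log2 fold changes were -0.92 in muff (edgeR adjusted p = 0.056), -0.64 in grouse and -0.55 in scale, and none passed.

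In the fits without pairs, 2 of 54 limb tests of single phenotypes were called, both of them IRX3 at HH29. The counts were 1 of 6 genes in scale and in grouse and 0 of 6 in muff at HH29, where 2.5%, 2.24% and 1% of all genes were called. At HH21 none of the 6 was called in scale, grouse or muff, beside 1.27%, 0.913% and 1.42% of all genes. At HH25 again none was called, beside 2.03%, 1.83% and 1.79% of all genes. Before adjustment 10 of the 54 p-values were below 0.05. DESeq2 called 4 tests, IRX3 in all 3 phenotypes and IRX4 in muff embryos at HH29. The percentages above are those of edgeR, and the share of all genes called by DESeq2 is not given here.

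The libraries of both limbs with the same phenotype and number deviated together, so the limbs were also compared within pairs. With the pair as a block, 9 of 54 tests were called, all at HH29. The genes were IRX2 (-0.55, adjusted p = 0.026), IRX3 (-0.57, adjusted p = 0.024) and IRX4 (-0.55, adjusted p = 0.026) in scale embryos, 3 of 6 beside 7.27% of all genes. In grouse embryos they were IRX3 (-0.80, adjusted p = 0.0039) and IRX4 (-0.64, adjusted p = 0.014), 2 of 6 beside 7.58%. In muff embryos they were IRX2 (-0.59, adjusted p = 0.026), IRX3 (-0.59, adjusted p = 0.023), IRX4 (-0.92, adjusted p = 0.0013) and IRX6 (-0.50, adjusted p = 0.015), 4 of 6 beside 4.79%. These p-values are from edgeR's quasi-likelihood test, and all 9 called values were lower in the hindlimb.

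Averaging the limb difference over the phenotypes, a comparison added after the data were seen, gave IRX3 and IRX4 as lower in hindlimbs at HH29. IRX3 stood at -0.66 on the log2 scale (SE 0.09, adjusted p = 1.5e-05) and a mean of 5.18 ± 1.14 CPM in hindlimbs, against 8.11 ± 1.495 CPM in forelimbs (SD, n = 12 each). IRX4 had -0.70 (SE 0.13, edgeR adjusted p = 0.00096), with 8.07 ± 1.86 CPM in hindlimbs, against 13.2 ± 3.44 CPM in forelimbs (SD, n = 12 each). Both were lower in the hindlimb in 12 of 12 pairs, and both calls held without any 1 of the 24 libraries. The share of all genes with the same sign in 12 of 12 pairs was not counted at any stage. Within libraries 1 and 2 the values were -0.61 for IRX3 and -0.72 for IRX4, and within libraries 3 and 4 they were -0.70 and -0.68, of which only the value of IRX3 in libraries 3 and 4 was called (adjusted p = 0.020). At HH29 2 of 6 genes were called beside 8.15% of all genes, and with pairs 4 of 6 beside 17.1%. The pairs added IRX2 (-0.50, adjusted p = 0.00058) and IRX5 (-0.35, adjusted p = 0.0078).

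**Figure D2:**
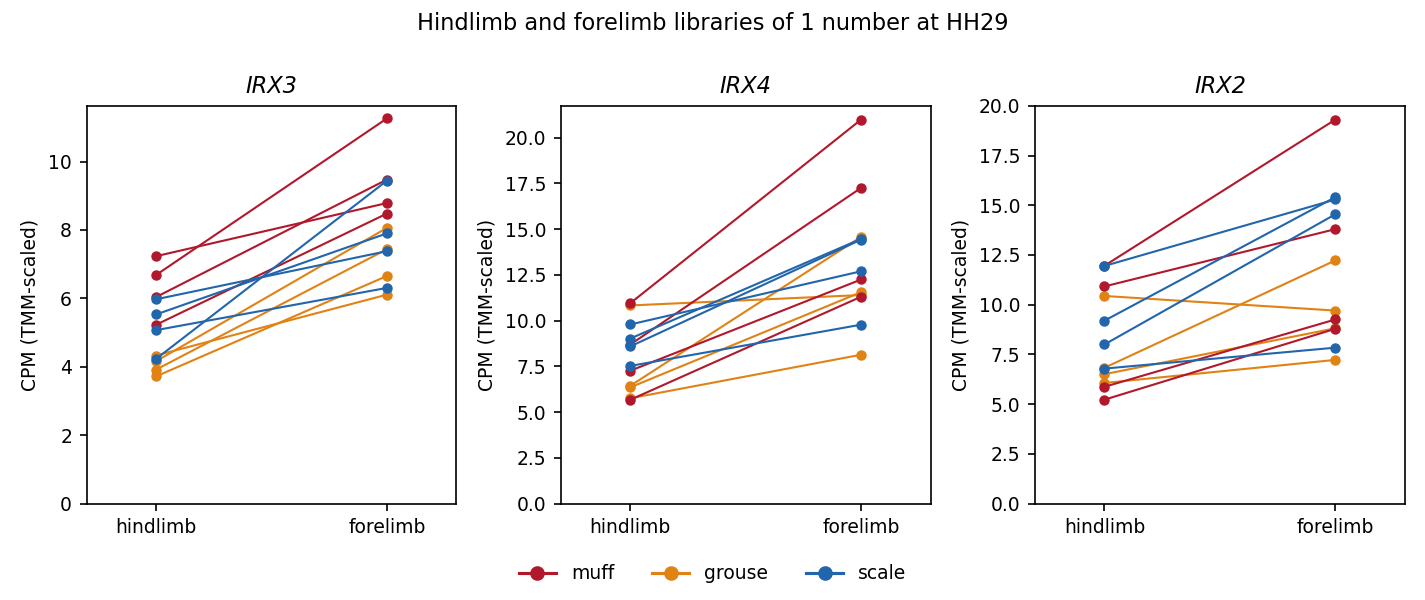
Levels (CPM, y axis) of IRX3, IRX4 and IRX2 at HH29 in hindlimb (left) and forelimb (right), with a line for each pair of libraries with the same phenotype and number, coloured by phenotype. The lines of IRX3 and IRX4 are lower at the hindlimb end in 12 of 12 pairs, and those of IRX2 in 11 of 12.

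IRX1 had its limb difference at the other end of the time course. At HH21 its level was lower in the hindlimb in 12 of 12 pairs, with a mean of 0.606 ± 0.362 CPM in hindlimbs, against 1.19 ± 0.412 CPM in forelimbs (SD, n = 12 each). This was not particular to IRX1, since IRX2 was also lower in 12 of 12 pairs at HH21. The log2 fold change of IRX1 averaged over phenotypes was -0.98 (SE 0.27, edgeR adjusted p = 0.027), 1 of 6 genes called beside 6.11% of all genes. The filter's minimum count was 10, and IRX1 had 1 to 15 counts in hindlimbs, against 7 to 25 in forelimbs. It thus entered the HH21 test mainly through the limb where it is higher, which limits what the call can show. That call was lost without 1 of 5 libraries, namely grouse hindlimb 2, scale forelimb 4, grouse forelimb 3, muff hindlimb 3 or muff hindlimb 4 (adjusted p up to 0.060). Within pairs IRX1 was again lower (-1.01, adjusted p = 0.0047), together with IRX2 (-0.47, adjusted p = 0.010) and IRX4 (-0.27, adjusted p = 0.048), 3 of 6 genes beside 16.5% of all genes. Beside these differences, PAX7, a muscle precursor gene, and SOX10, a neural crest gene, were lower in hindlimbs at HH21 (-0.99 and -2.26), and their part was not tested.

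At HH25 IRX1 had no limb difference past the test. It had 1.20, 0.578, 2.16 and 4.83 CPM in muff hindlimbs, against 3.36, 2.06, 2.22 and 2.08 CPM in muff forelimbs, and 6 of 12 pairs over all phenotypes were lower in the hindlimb. The log2 difference was -0.37 within libraries 1 and 2 and 0.81 within libraries 3 and 4, opposite in sign, and neither was called. None of the 6 genes was called at HH25 without pairs, beside 7.73% of all genes, with 3 of the 18 averaged tests called over the stages. Within pairs IRX3 (-0.41, adjusted p = 0.0026) and IRX4 (-0.32, adjusted p = 0.0025) were lower in hindlimbs, 2 of 6 genes beside 28% of all genes. IRX4 was lower in 12 of 12 pairs at HH25 and IRX3 in 10 of 12.

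**Figure D3:**
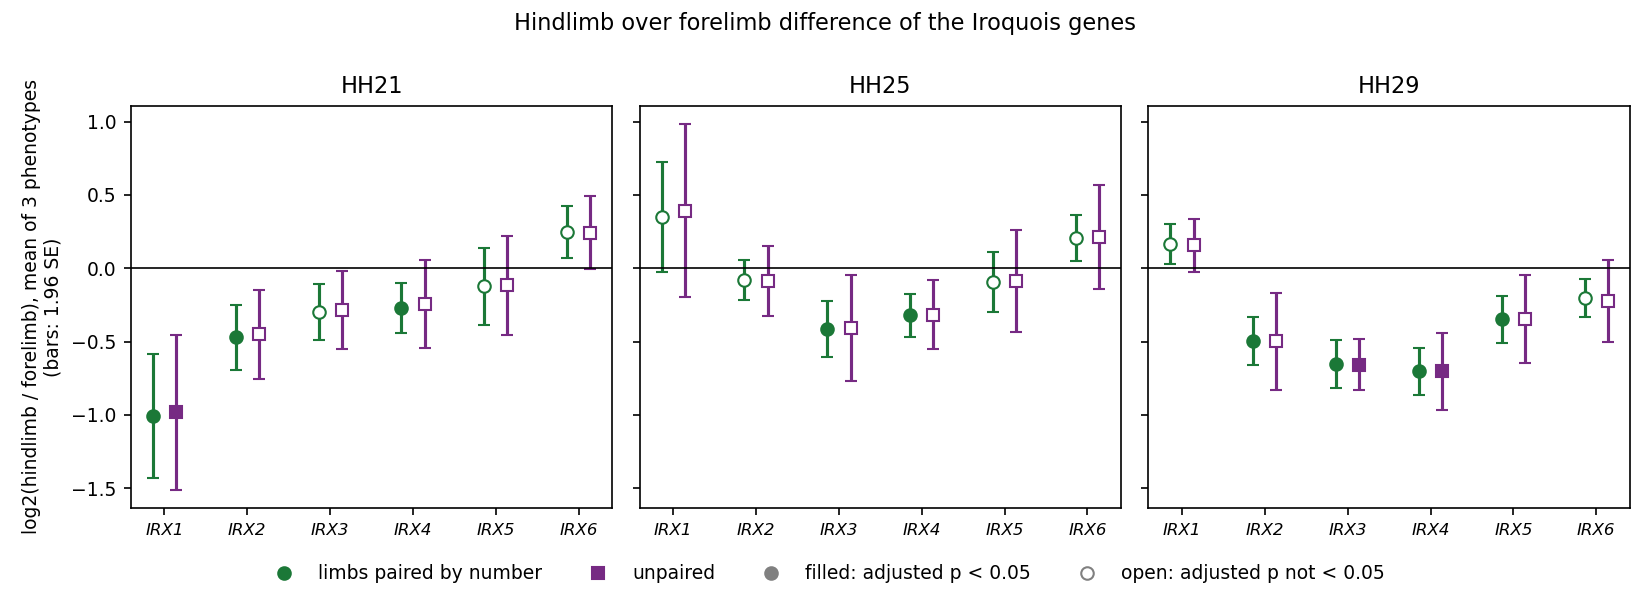
Log2 hindlimb over forelimb difference (y axis), averaged over the phenotypes, for each gene and stage, from the fits with and without pairs; bars are 95% intervals and filled points were called at an adjusted p below 0.05. In the fit without pairs IRX2, IRX3, IRX4 and IRX5 lie below 0 at every stage, with calls only for IRX3 and IRX4 at HH29. IRX1 lies at -0.98 at HH21 and above 0 later, where it was not called.

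The limb difference of IRX1 changed between HH21 and HH25 by 1.38 on the log2 scale (SE 0.39, edgeR adjusted p = 0.042), 1 of 6 genes beside 1.94% of all genes. The HH21 side of this change rests on 1 to 15 counts a library in hindlimbs. Within pairs the change was 1.32 (adjusted p = 0.0090), 1 of 6 beside 7.35%. The change was 0.29 within libraries 1 and 2 (adjusted p = 0.90) and 2.28 within libraries 3 and 4 (adjusted p = 0.030). It was not called without the libraries numbered 2, 3 or 4 (adjusted p up to 0.72). Between HH25 and HH29 none of the 6 changes was called, beside 0.848% of all genes. Within pairs IRX2 (-0.42, adjusted p = 0.038), IRX4 (-0.38, adjusted p = 0.046) and IRX6 (-0.42, adjusted p = 0.034) moved toward a lower hindlimb level, 3 of 6 beside 7.62%.

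Markers of other cells also differed between the limbs at HH29. EPCAM, an epithelial adhesion gene, was lower in hindlimbs (-0.29, adjusted p = 0.044) and TP63, a factor of basal epidermis, had -0.18 (adjusted p = 0.41), the 2 of 7 listed ectoderm markers found in the table. A longer list of 9 ectoderm genes, chosen after the data were seen, had 3 called lower and 9 of 9 below 0, with a median of -0.29 beside 0.00 for all genes. The summed level of those 9 genes was 186 to 292 CPM in hindlimbs and 228.5 to 379 CPM in forelimbs. Neuron and spinal cord markers were summed at 10.9 to 19.6 CPM in hindlimbs and 7.84 to 12.2 CPM in forelimbs, with PAX6 and OLIG2 near 0. Of the 4 of these markers tested, SOX2 and NKX6-1 were called higher in hindlimbs (1.58 and 1.49), while the neuronal genes ELAVL4 (0.19, adjusted p = 0.55) and STMN2 (-0.01, adjusted p = 0.99) did not pass. Of the muscle precursor genes, PAX3 was lower (-1.02) and MYF5 higher (0.55). The part of ectoderm, nerve and muscle in the limb differences of the Iroquois genes was not tested. Correlations with the summed level of a list were taken across the 72 libraries after group means were taken off, where the points share libraries and depth. With the 9 ectoderm genes they were 0.45 for IRX4, 0.43 for IRX2 and 0.06 for IRX3. With the 2 markers EPCAM and TP63 they were 0.48 for IRX4, 0.49 for IRX2 and 0.20 for IRX3. Genes with high levels weigh most in such sums. For IRX2 the correlation with limb patterning genes (-0.72) was further from 0 than both ectoderm values. That with limb mesenchyme markers (-0.48) lay between them in size.

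Of the 12 limb patterning genes listed beside Irx3 and Irx5 from work in mouse, 3 were higher and 0 lower in hindlimbs at HH21, 2 higher and 4 lower at HH25, and 3 higher and 2 lower of the 11 tested at HH29, with medians of 0.15, -0.10 and -0.12. ISL1, a hindlimb field factor, was higher at HH29 (2.82, adjusted p = 2.8e-08), as was PAX9 (1.64, adjusted p = 1.4e-08). ALX4, which acts on the anterior side of the bud, was lower (-0.90, adjusted p = 4.0e-05), as was TBX3 (-0.85, adjusted p = 4.5e-10). Of the other TALE genes 0 were higher and 3 lower at HH29, among them MEIS2 (-0.49) and PKNOX1 (-0.15). Of the 5 listed flanking genes in the table none was called at HH29 or HH25, while at HH21 MMP2 was lower in hindlimbs (-0.25, edgeR adjusted p = 0.015). Other neighbours of the clusters, such as ANKS6, were not looked at.

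In hindlimbs the phenotypes were compared at each stage, with 1 of 54 tests called. IRX3 had 6.68, 6.04, 7.23 and 5.23 CPM in muff hindlimbs at HH29, against 4.33, 4.16, 3.92 and 3.72 CPM in grouse hindlimbs. Every muff library was above every grouse library, and scale hindlimbs, at 5.97, 5.53, 4.23 and 5.07 CPM, overlapped both. How many of all genes separate muff from grouse in this way was not counted. IRX3 was higher in muff than in grouse (log2 fold change 0.64, SE 0.16, edgeR adjusted p = 0.024), 1 of 6 genes beside 3.77% of all genes. The call was lost without 1 of 5 libraries, namely grouse hindlimb 1, 3 or 4 or muff hindlimb 1 or 3 (adjusted p 0.017 to 0.096). As a plain log2 ratio of mean CPM, muff over grouse was 0.58 within libraries 1 and 2 and 0.71 within libraries 3 and 4. Neither feathered phenotype differed from scale for IRX3 at HH29 past the test.

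At HH25 none of the 6 Iroquois genes passed in muff hindlimbs in the edgeR fit without a term for the library numbers. IRX2 and IRX1 passed in some edgeR fits that held one, and DESeq2 without such a term called IRX2 in muff over grouse. IRX2 had 4.96, 6.36, 5.35 and 4.77 CPM in muff hindlimbs, against 10.6, 9.70, 7.66 and 7.03 CPM in grouse hindlimbs and 10.4, 9.51, 6.78 and 7.03 CPM in scale hindlimbs. The highest muff library lay below the lowest grouse and scale libraries, and the share of all genes with such a gap was not counted. IRX2 in muff over scale stood at -0.65 on the log2 scale (SE 0.21, edgeR adjusted p = 0.093) and in muff over grouse of -0.71 (SE 0.21, edgeR adjusted p = 0.0998), neither of them called. With the split between libraries 1 and 2 and libraries 3 and 4 as a term, IRX2 was called lower in both (-0.64, adjusted p = 0.0053, and -0.69, adjusted p = 0.0037). As a plain log2 ratio of mean CPM, muff over scale was -0.81 within libraries 1 and 2 and -0.45 within libraries 3 and 4.

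IRX1 varied more within its groups. It had 1.20, 0.578, 2.16 and 4.83 CPM in muff hindlimbs at HH25, against 2.003, 3.69, 10.5 and 4.63 CPM in grouse hindlimbs and 4.44, 2.36, 9.37 and 6.88 CPM in scale hindlimbs. The muff group overlapped both others, and libraries 3 and 4 were above libraries 1 and 2 in each phenotype. Muff over scale was -1.37 on the log2 scale (SE 0.52, edgeR adjusted p = 0.15), and with the split as a term IRX1 was called lower (-1.41, adjusted p = 0.024). Muff over grouse was -1.22 (adjusted p = 0.30) and -1.25 with the split as a term (adjusted p = 0.061). With that term 2 of 6 genes were called in muff over scale, beside 11.8% of all genes, and 1 of 6 in muff over grouse, beside 6.39%. Without it none was called in either, beside 2.87% and 1.77%. Muff and scale hindlimbs of HH25 with the same number also deviated together, with correlations of 0.156 to 0.462 in 4 of 4 pairs. With the number as a block, IRX1 (-1.40, adjusted p = 0.028) and IRX2 (-0.63, adjusted p = 0.0053) were called lower in muff over scale, 2 of 6 genes beside 13.4% of all genes.

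**Figure D4:**
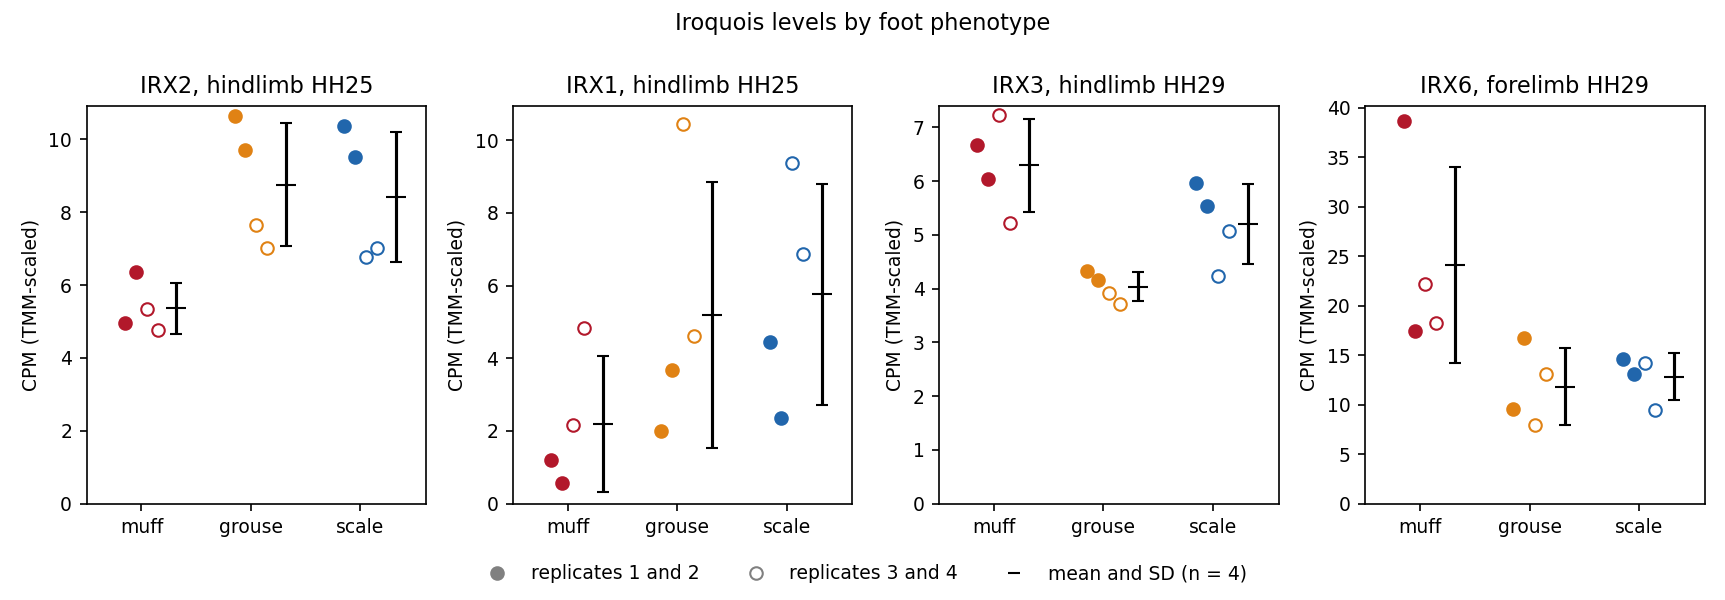
Levels (CPM, y axis) of IRX2 and IRX1 in hindlimbs at HH25, IRX3 in hindlimbs at HH29 and IRX6 in forelimbs at HH29 by foot phenotype (x axis, muff, grouse, scale); filled points are libraries 1 and 2, open points libraries 3 and 4, and bars show mean ± SD (n = 4). The muff libraries lie below all others for IRX2, between 4.77 and 6.36 CPM, and above all grouse libraries for IRX3 and IRX6.

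Beside these values, none of 12 cartilage and joint genes was called in muff over scale hindlimbs at HH25, and 12 of 12 were below 0, with a median of -0.37. Of the 12 limb patterning genes 2 were called, both higher in muff, HAND2 (0.32, adjusted p = 0.011) and SALL1 (0.46, adjusted p = 0.040), with a median of 0.13. The part of either list in the lower IRX1 and IRX2 values was not tested. In the remaining hindlimb tests none of the 6 genes was called. The background was 0.538%, 0.839% and 0.36% for grouse over scale at HH21, HH25 and HH29. It was 2.93% and 1.28% for muff over scale at HH21 and HH29, and 1.59% for muff over grouse at HH21. Before adjustment 9 of the 54 hindlimb p-values were below 0.05. DESeq2 called 2 tests, IRX3 in muff over grouse at HH29 and IRX2 in muff over grouse at HH25 (adjusted p = 0.049). Its share of all genes called is not given here.

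In forelimbs 0 of 36 phenotype tests were called, with 3 unadjusted p-values below 0.05. IRX6 came nearest. At HH29 it had 38.7, 17.5, 22.2 and 18.3 CPM in muff forelimbs, against 14.6, 13.1, 14.2 and 9.46 CPM in scale forelimbs, and the groups did not overlap. Grouse forelimbs had 9.57, 16.7, 7.999 and 13.1 CPM, also below every muff library. How many of all genes separate muff forelimbs in this way was not counted. The muff over scale log2 fold change was 0.92 (SE 0.25, edgeR adjusted p = 0.051), 0 of 6 genes called beside 2% of all genes. With the split as a term IRX6 was called higher (0.90, adjusted p = 0.031), 1 of 6 beside 4.25%, and DESeq2 called it too (0.90, adjusted p = 0.017). For DESeq2 the share of all genes is not given here. Leaving out 1 library at a time gave adjusted p-values from 0.044 to 0.19. The split left the direction as it was, with plain log2 ratios of mean CPM of 1.02 within libraries 1 and 2 and 0.77 within libraries 3 and 4. For muff over scale at HH21 and HH25 none of the 6 genes was called, beside 0.505% and 1.18% of all genes. For grouse over scale none was called at HH21, HH25 or HH29, beside 0.204%, 0.743% and 0.469%.

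Whether the limb difference itself depended on the phenotype was tested for grouse and for muff against scale, and 0 of 36 tests were called. None of the 36 had an unadjusted p below 0.05, the lowest being 0.083, and DESeq2 called 0. In grouse against scale 0% of all genes were called at HH21, 0% at HH25 and 0% at HH29, and in muff against scale 0.00815%, 0.016% and 0.0156%. For IRX3 at HH29 the limb difference of grouse minus that of scale was -0.23, and that of muff minus that of scale was -0.02.

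The authors' deposited tables of 12 comparisons gave adjusted p-values below 0.05 for 6 of 72 Iroquois values, and 1 value had no adjusted p. The share of all genes called in those tables was not counted here, so these calls have no background beside them. In the authors' deposited tables for HH25, IRX2 was lower in muff than in scale hindlimbs (log2 fold change -0.524, adjusted p = 0.000808) and than in grouse hindlimbs (-0.538, adjusted p = 0.000352). IRX1 was also lower there in the authors' deposited tables, at -0.44 against scale (adjusted p = 0.0102) and -0.422 against grouse (adjusted p = 0.0267). The edgeR fits gave larger changes for the same comparisons of IRX1, at -1.37 and -1.22. Such a gap was not limited to IRX1. TBX5 in muff over scale hindlimbs at HH25 had a deposited log2 fold change of 2.55, beside mean levels of 27.0 and 1.28 CPM. Beyond this, deposited and refitted log2 fold changes are not compared in size, and why they differ was not tested. The authors' deposited table for HH29 had IRX3 higher in muff than in grouse hindlimbs (0.512, adjusted p = 0.0114). In the authors' deposited table for scale embryos at HH29, IRX3 had -0.476 (adjusted p = 0.0238), after the sign was turned to read hindlimb over forelimb.

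Genes of the chromosome 13 cluster varied together from library to library. After the mean of each of the 18 groups was taken off, the correlation over the 72 libraries was 0.70 for IRX3 with IRX5, 0.73 for IRX5 with IRX6 and 0.66 for IRX3 with IRX6. On chromosome 2, IRX2 and IRX4 had 0.61, while IRX1 had -0.11 with IRX2 and -0.03 with IRX4. The median was 0.64 over the 6 pairs within a cluster and 0.32 over the 9 pairs between clusters. The pairs between clusters ran from -0.43 to 0.58, so the ranges overlapped. IRX2 had 0.58 with IRX6 and 0.51 with IRX5, near its value with IRX4. These correlations are descriptions, since the points share libraries and depth. With the split of library numbers also taken off they were 0.61, 0.73 and 0.63 on chromosome 13, and 0.56 for IRX2 with IRX4. IRX2 then had 0.43 with IRX6 and 0.29 with IRX5.

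Over the 18 group means the pattern was another. IRX1 had -0.78 with IRX3 and 0.76 with IRX2, IRX2 had 0.70 with IRX4, and IRX5 had 0.60 with IRX6, whereas IRX3 had 0.13 with IRX5 and 0.21 with IRX6. Within groups IRX1 ran against the chromosome 13 genes, with -0.43 for IRX3, -0.34 for IRX5 and -0.35 for IRX6. With the split of library numbers also taken off these were -0.44, -0.33 and -0.18. Within groups IRX1 also had 0.45 with the cartilage and joint list and -0.65 with the other TALE genes, while IRX3 had -0.39 and 0.73 with these lists. The cartilage value did not stand alone, since IRX1 had 0.45 with muscle markers and 0.42 with limb mesenchyme markers. IRX3 had -0.37 and -0.14 with those markers. The split of library numbers was not taken off for the correlations with lists.

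**Figure D5:**
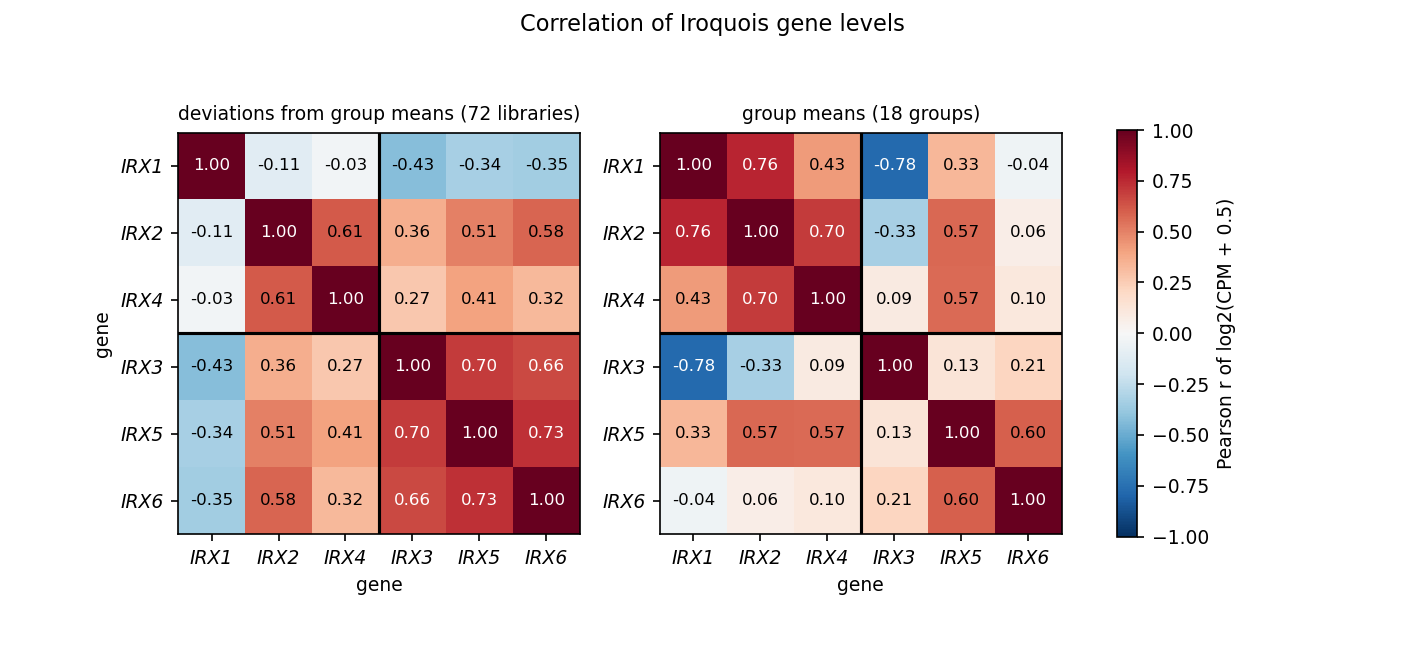
Pearson correlations between the 6 Iroquois genes on log2(CPM + 0.5), in chromosome order, over 72 libraries after group means were taken off and over the 18 group means; colour and numbers give the correlation. Within groups the chromosome 13 genes form a block of 0.66 to 0.73, and over group means IRX1 and IRX3 stand at -0.78.

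The named genes with the pattern most like each member were sought among 10176 genes by correlation over the 18 group means. For IRX1 they were SMIM14 (0.986), EIF2AK3 (0.983) and TRIM54 (0.982), and for IRX2 PGR (0.881), TRAF1 (0.880) and ZNF488 (0.877). For IRX3 they were TFAP2E (0.947), WNT7A (0.945), the signal of dorsal limb ectoderm, and KIF26A (0.923). For IRX4 they were GRIK1 (0.872), EDAR (0.868), the ectodysplasin receptor of feather and hair placodes, and GPC4 (0.864). For IRX5 they were RNF19B (0.764), ADAMTS8 (0.764) and PAX1 (0.726), and for IRX6 NUDT8 (0.716), TOR4A (0.678) and LRRK1 (0.645), looser than for the other members. Averaged over phenotypes at HH29, WNT7A had a hindlimb over forelimb log2 fold change of -0.62 (adjusted p = 0.025) and TFAP2E of -0.98 (adjusted p = 0.0050). EDAR had -0.93 at HH29 (adjusted p = 6.2e-08). These genes were picked for their likeness, so their values are descriptions.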

How the data were processed

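RNA of paired hindlimb and forelimb buds was sequenced as stranded, oligo(dT)-selected paired-end libraries, per the labels' protocols. The authors used FastQC, STAR, featureCounts and DESeq2, per the submitters' processing notes, and neither versions nor a build are given there. The deposited files hold whole-number counts of reads per feature for each library, and the deposited comparison tables hold the authors' log2 fold changes and adjusted p-values. Counts were summed per gene name and tested in R 4.3.3 with edgeR 4.0.16 (filterByExpr, TMM, quasi-likelihood test, Benjamini-Hochberg over all genes tested). The fits held the 24 libraries of a stage, or all 72 for stages, with 12273 to 12967 genes tested per comparison. DESeq2 1.42.0 was an alternative. The largest shift of the median gene was 0.021 on the log2 scale.

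Replicate numbers paired the limbs: in 36 of 36 pairs the deviations of both limbs from their group means correlated by 0.219 to 0.758, and each library correlated best with its own number. No library was a copy of another in its own group: over 108 replicate pairs the lowest chi-square per degree of freedom was 4.08. The 6 genes are named with all values, and of each gene list at most 4 of the called genes with the greatest change. Members and gene lists were chosen with earlier results of these data known. Correlations used log2(CPM + 0.5). No sequences were used here.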

Additional observations from a re-analysis of the deposited data

Results flagged for a closer look

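In 5 of 108 groups of 4 libraries, 1 library lay far from the other 3, against about 5% of groups expected by chance. IRX1 had 3.36 CPM in muff forelimb library 1 at HH25, above the rest of its group. IRX1 had 1.25 CPM in grouse hindlimb library 1 at HH21, again the highest. IRX2 had 7.84 CPM in scale forelimb library 4 at HH29, the lowest of its group. IRX3 had 4.42 CPM in grouse forelimb library 3 at HH25, the lowest of its group. IRX4 had 10.8 CPM in grouse hindlimb library 1 at HH29, the highest of its group. The limb difference of IRX1 differed between stages, by 1.38 on the log2 scale at HH25 minus HH21 (edgeR adjusted p = 0.042, hindlimb lower in 6 of 12 pairs at HH25 and in 12 of 12 at HH21).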

How the results depend on the processing

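The counts of called tests moved most with the treatment of replicates. Of 54 limb tests in single phenotypes, 2 were called, against 9 with the replicate block, 4 with DESeq2, 1 each with only the groups compared, with RLE scaling, without a filter and with features tested singly, 0 within libraries 1 and 2, 0 within libraries 3 and 4, and 1 to 3 with 1 library left out. Averaged over phenotypes, 3 of 18 were called, against 9 with the replicate block and 0 within libraries 1 and 2, and 2 to 4 with 1 library left out. The change of the limb difference with stage was called in 1 of 12 tests, against 4 with the replicate block, 0 within libraries 1 and 2, and 0 to 1 with 1 replicate number left out. The phenotype tests in hindlimbs gave 1 call of 54, against 4 with the replicate block, 4 with the split of library numbers as a term, 2 with DESeq2, 0 with only the groups compared and 0 to 2 with 1 library left out. In forelimbs 0 of 36 were called, against 1 with the replicate block (IRX6, muff over scale at HH29, 0.90, adjusted p = 0.032), 1 with the split, 1 with DESeq2 and 0 to 1 with 1 library left out. Within the number pairs fewer libraries were tested, and the cause of the other moves was not tested. The share of all genes called moved as well. In muff over scale hindlimbs at HH25 2.87% of all genes were called, against 13.4% with the replicate block and 11.8% with the split. The share beside the IRX6 call with the replicate block is not given here. Phenotypes of the same limb and number did not pair throughout: their deviations correlated by -0.309 to 0.5004, with 48 of 72 over 0.1 and 30 of 72 best with their own number. All 4 pairs were over 0.1 in 4 of 6 comparisons at HH25, 1 of 6 at HH21 and 0 of 6 at HH29, and among those the block changed calls in muff over scale hindlimbs at HH25. The 10 stage calls were 8 to 10 under every alternative and 9 to 10 with 1 replicate number left out, and the tests of phenotype on the limb difference gave 0 calls throughout. No value changed sign together with a call. IRX1 at HH21 rests on 1 to 25 counts a library, which limits the precision of its limb difference.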
